A study of Mus musculus with 2 samples.

Results

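This report describes the anti-FLAG peaks that the authors' annotation assigned to genes of the forkhead (Fox) family, with the 4 FoxO genes, Foxo1, Foxo3, Foxo4 and Foxo6, in most detail. Members were all peaks whose assigned gene symbol was Fox, a letter from a to s and a number, which no measured value entered. They numbered 305 of 99782 annotated peaks (0.306%), on 15 chromosomes. The 4 FoxO genes held 60 of them and the other forkhead genes 245. The peaks came from CUT&Tag, in which an antibody directs the transposase Tn5 to cut DNA near its target, on hippocampus from C57BL/6J mice of the genotype CamK-PARIS with no treatment. The series held 1 library made with anti-FLAG, against the tag on the zinc-finger repressor PARIS, and 1 library made with IgG from the same genotype, tissue and strain. Peaks had been called on the anti-FLAG library with the IgG library as the control. Neither the mice's age and number nor the promoter behind the transgene is given in the sources used here. With 1 library per antibody there is no replicate error and no test between antibodies, so each value describes this peak list. Sequencing depth is unknown from the files, and all intervals are 95% intervals that cover counting error only.

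Forkhead proteins are transcription factors that share a winged-helix DNA-binding domain, and subfamilies are named by letter. The FoxO proteins sit at the end of insulin and growth factor signalling: when the pathway is active, Akt phosphorylates them, 14-3-3 proteins bind them and they leave the nucleus, and when it is quiet they enter it and act on genes of stress resistance, metabolism, cell cycle arrest and cell death. Foxo6 is expressed mainly in the brain, including the hippocampus. FoxO proteins bind the core TGTTTAC and insulin response elements such as TGTTTTG, and PARIS has been reported to bind an insulin response sequence, TATTTTT or TATTTTG. In this assay a peak at a gene is a place where the antibody's target was captured, and it does not measure the gene's expression.

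Stretches at the regions of maximum signal of the FoxO peaks show what kinds of sequence the signal covered. All are on the plus strand of mm10 (GRCm38.p6), from its RefSeq copy. The first is from the peak over the Foxo1 gene start, taken in the coding part of exon 1 and beginning at its ATG, 243 bp from the middle of the maximum, which lay in the untranslated part. It had a GC content of 74.0% and 28 CpG dinucleotides, an observed to expected CpG ratio of 1.04. The second is from the tallest Foxo1 peak, in intron 1, and 70.7% of its bases equalled the base 43 bp further on, so it is a tandem repeat in part, although none of it was masked as repeat in the reference. The third is a 60-base stretch beside the start of an internal Foxo3 transcript. The fourth is from the tallest Foxo3 peak, in intergenic DNA beyond the 3′ end. The fifth is from the tallest peak of the whole family, beyond the 3′ end of Foxo6, with a GC content of 57.0% and 1 CpG. None of these 5 stretches held any of the 4 motifs on either strand.
Foxo1 gene start, chr3:52268802-52269001: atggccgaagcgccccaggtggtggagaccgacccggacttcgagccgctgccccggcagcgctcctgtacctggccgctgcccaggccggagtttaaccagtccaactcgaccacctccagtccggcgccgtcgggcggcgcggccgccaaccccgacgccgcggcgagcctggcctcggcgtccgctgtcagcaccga
Foxo1 intron 1, chr3:52327852-52328051: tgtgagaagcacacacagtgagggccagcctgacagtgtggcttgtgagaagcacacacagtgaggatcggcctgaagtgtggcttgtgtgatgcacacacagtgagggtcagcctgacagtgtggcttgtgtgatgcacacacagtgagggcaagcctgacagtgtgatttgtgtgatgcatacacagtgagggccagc
Foxo3 internal start, chr10:42258367-42258426: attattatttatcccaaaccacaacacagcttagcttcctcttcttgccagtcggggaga
Foxo3 downstream, chr10:42160406-42160605: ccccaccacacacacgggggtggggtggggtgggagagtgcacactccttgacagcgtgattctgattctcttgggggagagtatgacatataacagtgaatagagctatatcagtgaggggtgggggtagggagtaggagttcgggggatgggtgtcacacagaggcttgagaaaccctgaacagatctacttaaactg
Foxo6 downstream, chr4:120263251-120263450: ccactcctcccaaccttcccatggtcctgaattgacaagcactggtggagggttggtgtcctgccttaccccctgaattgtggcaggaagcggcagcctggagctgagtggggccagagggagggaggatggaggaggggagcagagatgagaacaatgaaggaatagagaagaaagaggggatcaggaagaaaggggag

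Forkhead windows that did hold the insulin response sequence reported for PARIS came from peaks with maximum signals between 13 and 201. The highest of these, at Foxe3, was not of constant height and is not shown. The stretches below show the motif in capitals for the FoxO genes and for a Foxp1 peak whose height was not constant along the peak. CAAAATA is TATTTTG read from the other strand. The Foxo1 and Foxo3 peaks are intronic and had maximum signals of 17, 104 and 54, where the median of all peaks was 101. The peak at chr3:52342567-52342731 held both forms of the motif. The Foxp1 peak, with a maximum of 69, is inside Foxp1.
Foxo1, chr3:52311188-52311244: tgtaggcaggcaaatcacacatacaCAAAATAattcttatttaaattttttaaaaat
Foxo1, chr3:52342567-52342731: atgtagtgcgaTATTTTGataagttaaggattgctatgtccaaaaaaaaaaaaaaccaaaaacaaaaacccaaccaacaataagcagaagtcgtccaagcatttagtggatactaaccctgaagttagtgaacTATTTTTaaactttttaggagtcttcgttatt
Foxo3, chr10:42187601-42187657: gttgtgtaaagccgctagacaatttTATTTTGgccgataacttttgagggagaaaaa
Foxp1, chr6:99406200-99406256: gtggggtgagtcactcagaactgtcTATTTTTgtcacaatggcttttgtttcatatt

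Across the family the motif was not more frequent than in the peak list at large. Of the 305 windows of 200 bp centred on the region of maximum signal, 21 held TATTTTT or TATTTTG on either strand (6.89%, Wilson interval 4.55 to 10.3), against 9.97% of all 99707 windows on the main chromosomes. The interval holds the share of all windows. Windows of the same length 1 kb to the left and right of the forkhead peaks held it in 13.8% and 10.8% of cases, and those of all peaks in 13.6% and 13.5%. Among forkhead peaks not of constant height the share was 3 of 109 (2.75%, 0.94 to 7.78), beside 7.04% of all peaks of that kind. Among those of constant height it was 18 of 196 (9.18%, 5.89 to 14.0), beside 11.7%. Both intervals hold the share of all peaks of the same shape, and the motif was rarer in peaks not of constant height in the whole list too. FoxO windows held it in 3 of 60 cases (5.0%). The forkhead core TGTTTAC was in 8 of the 305 forkhead windows (2.62%) and 2.29% of all windows, and in 0 of the 60 FoxO windows, which allows a share of up to 6.02% (Wilson). TGTTTTG was in 13 forkhead windows (4.26%) and 5.43% of all windows, and in 1 FoxO window, in an intron of Foxo3. The motifs were searched as different strings of letters, which does not mean that different proteins bind them. Mean GC content was 50.4% ± 9.38 (SD over the 305 windows) for forkhead windows and 49.0% ± 8.91 for all windows.

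**Figure D1:**
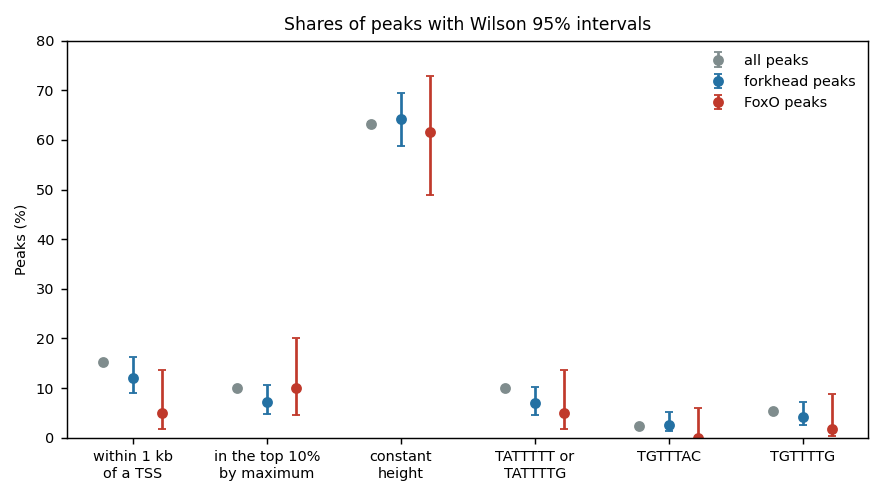
Percent of peaks (vertical axis) with each of 6 properties, for all peaks (grey), the 305 forkhead peaks (blue) and the 60 FoxO peaks (red), with Wilson 95% intervals. The forkhead intervals hold the share of all peaks in all 6 properties, and the FoxO share within 1 kb of a transcription start site (TSS), 5.0%, is the one whose interval lies below it.

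A peak whose total signal (coverage summed over its bases) was at least 99% of its maximum signal (highest coverage) times its width was counted as a peak of constant height, a rectangle with no summit. Such peaks were 196 of the 305 forkhead peaks (64.3%, 58.7 to 69.4), beside 63.3% of all peaks. The FoxO genes had 37 of 60 (61.7%). The maximum signal of forkhead peaks had a median of 97 (interval 91 to 105), with the quartiles at 65 and 128 and values between 9 and 554. Over all peaks the median was 101 and values lay between 5 and 2395. The top 10% by maximum signal, at 189 or above, included 22 forkhead peaks (7.21%, 4.81 to 10.7), beside 9.94% of all peaks. FoxO peaks had a median of 107 (93 to 132) and 6 of 60 in that group (10%). In strength and shape the family as a whole was thus within counting error of the list, and the differences described next are between its genes.

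Peaks were spread unevenly over the genes. Of 45 forkhead genes in the GENCODE M21 annotation, 37 had an assigned peak. The 8 without were Foxa3, Foxb1, Foxd2, Foxl2, Foxm1, Foxn4, Foxr1 and Foxs1. The 5 genes with the most peaks were Foxp1 with 58, Foxk1, Foxo6 and Foxo1 with 20 each, and Foxo3 with 18. The 11 genes with 10 or more peaks held 220, while 12 genes had 1 or 2. FoxP, which includes the neuronal regulators Foxp1 and Foxp2 and the regulatory T cell factor Foxp3, had 89 peaks in 4 genes. FoxO had 60 in 4 genes, FoxK 26 in 2 genes, and FoxA, the liver and endoderm pioneer factors, 20 in 3. FoxN also had 20, in 4 genes, and FoxL had 19 in 3. FoxJ, which includes the cilia regulator Foxj1, had 12, FoxI 9, FoxC 8, FoxD and FoxF 7 each, FoxE 4, FoxB and FoxQ 3 each, and FoxH and FoxR 1 each.

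**Figure D2:**
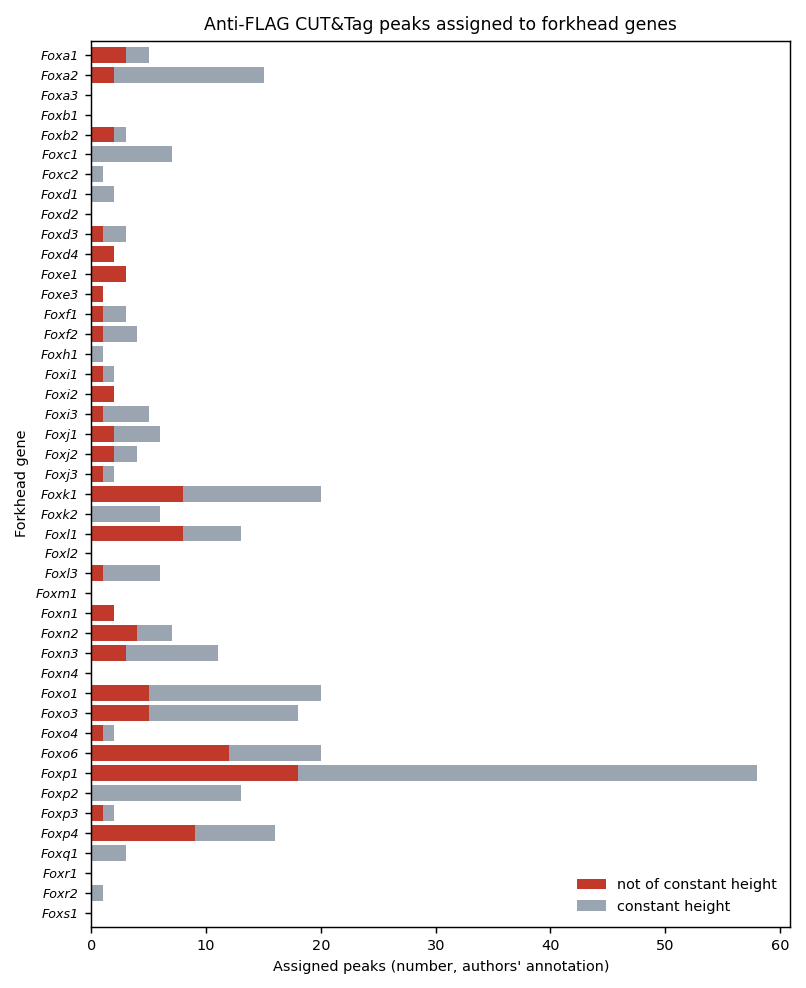
Number of anti-FLAG peaks assigned by the authors to forkhead genes, split into peaks not of constant height (red) and of constant height (grey). Foxp1 has the most, 58, of which 18 are not of constant height, and 8 genes have none.

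The mix of shapes varied between genes, although many of the intervals overlap. All 13 Foxp2 peaks were of constant height (interval 77.2 to 100), as were 15 of 20 at Foxo1 (53.1 to 88.8) and 13 of 18 at Foxo3 (49.1 to 87.5). At Foxo6 it was 8 of 20 (40.0%, 21.9 to 61.3), an interval that lies below the 63.3% of all peaks but overlaps that of Foxo1. At Foxp4 it was 7 of 16 (23.1 to 66.8), an interval that does not overlap that of Foxp2. Foxp1 had 40 of 58 (69.0%, 56.2 to 79.4). The intervals of Foxo1, Foxo3, Foxp1 and Foxp4 hold the 63.3% of all peaks. In 8 genes every assigned peak was of constant height, among them Foxc1 with 7 and Foxk2 with 6 peaks, but also Foxc2, Foxh1 and Foxr2 with only 1 each. The highest maximum signal of any Foxp2 peak was 127, and 6 of the 22 forkhead peaks in the top 10% were FoxO peaks.

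The tallest pair of peaks of the family lay beyond the 3′ end of Foxo6. The gene spans chr4:120267079-120287349 on the minus strand. Its 20 peaks ranged from 49 to 554 in maximum signal, with a median of 123. Beyond the 3′ end lay 12 peaks, 8 of them not of constant height, within 39.1 kb (chr4:120227365-120266457). No other peak and no gene of any type in GENCODE M21 lay over this span, and the gap from it to the next gene, Edn2, was 60 kb. The density there was 307 peaks per Mb, where chromosome 4 had 41.8. The span was drawn from the first to the last base of these 12 peaks, which raises its density by construction. The values therefore do not measure an enrichment over the chromosome. The tallest, at chr4:120262618-120264199, was 1582 bp wide, had a maximum of 554 and a total signal of 262118, and was centred 3728 bp past the 3′ end, and its maximum ranked 194 among all peaks. The next, at chr4:120252263-120253308, had a maximum of 425 and a total of 167980. The remaining 10 of the span had maxima between 49 and 184.

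Within the Foxo6 body lay 7 peaks, 4 of them not of constant height, and the tallest were in intron 1. That at chr4:120280451-120281743 had a maximum of 269, and that at chr4:120282890-120283395 had 241. The gene start itself had no peak within 1 kb. Its nearest peak was 3401 bp inside the gene, of constant height with a maximum of 76. A single peak, with a maximum of 132 and of constant height, lay upstream, 39277 bp away. Summit windows of 18 of the 20 Foxo6 peaks had a GC content above 50%, and none held any of the 4 motifs. Median GC content was 49.0% over all windows, 52.0% over those of all peaks not of constant height and 51.2% over FoxO windows. The share of all windows above 50% is not given here, so the count is not shown to be particular to Foxo6.

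Foxo1 had a peak over its start and a broad peak deep in intron 1. The gene spans chr3:52268336-52353221 on the plus strand. The start peak, at chr3:52268318-52269104, was 787 bp wide and not of constant height, with a maximum of 149, above 81.9% of all peaks. The intronic peak at chr3:52327567-52329787 was 2221 bp wide, with a maximum of 248 and a total signal of 180671, and it is the one whose summit holds the 43 bp repeat shown above. Of the other 18 peaks, only 3 were not of constant height, with maxima of 165, 132 and 81. By position, 8 of the 20 peaks lay upstream, 10 in the body and 2 downstream, and the maxima ranged from 17 to 248 with a median of 102.

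Foxo3, on the minus strand at chr10:42181841-42276755, had no peak at its main start. A peak of constant height at chr10:42258208-42258464, with a maximum of 132, lay over the start of the shorter protein-coding transcript ENSMUST00000177542.1, at chr10:42258366. The outermost start was 3013 bp from its nearest peak, also of constant height (maximum 127), and 47688 bp from the nearest peak of another shape. Peaks in the body numbered 13, of which 3 in introns were not of constant height, with maxima of 135, 147 and 172. The 4 peaks downstream included the tallest of the gene, at chr10:42159984-42160949 with a maximum of 203, and a peak with a maximum of 164 at chr10:42174823-42175548. The summit window of the latter was a tandem repeat too, with 82.3% of its bases equal to the base 42 bp further on.

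Foxo4 is a short gene, at chrX:101254528-101260873 on the plus strand, with 2 peaks. The peak at chrX:101254172-101254898 covered the gene start, was 727 bp wide and not of constant height, and had a maximum of 110. The other was of constant height, in exon 2 of 3, with a maximum of 93. Foxo1 and Foxo4 thus carried a peak not of constant height that covered the gene start, with its region of maximum signal inside the gene. Foxo3 and Foxo6 did not carry any peak within 1 kb of the outermost start. A short gene offers less room for peaks, so the 4 counts are not on an equal footing.

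**Figure D3:**
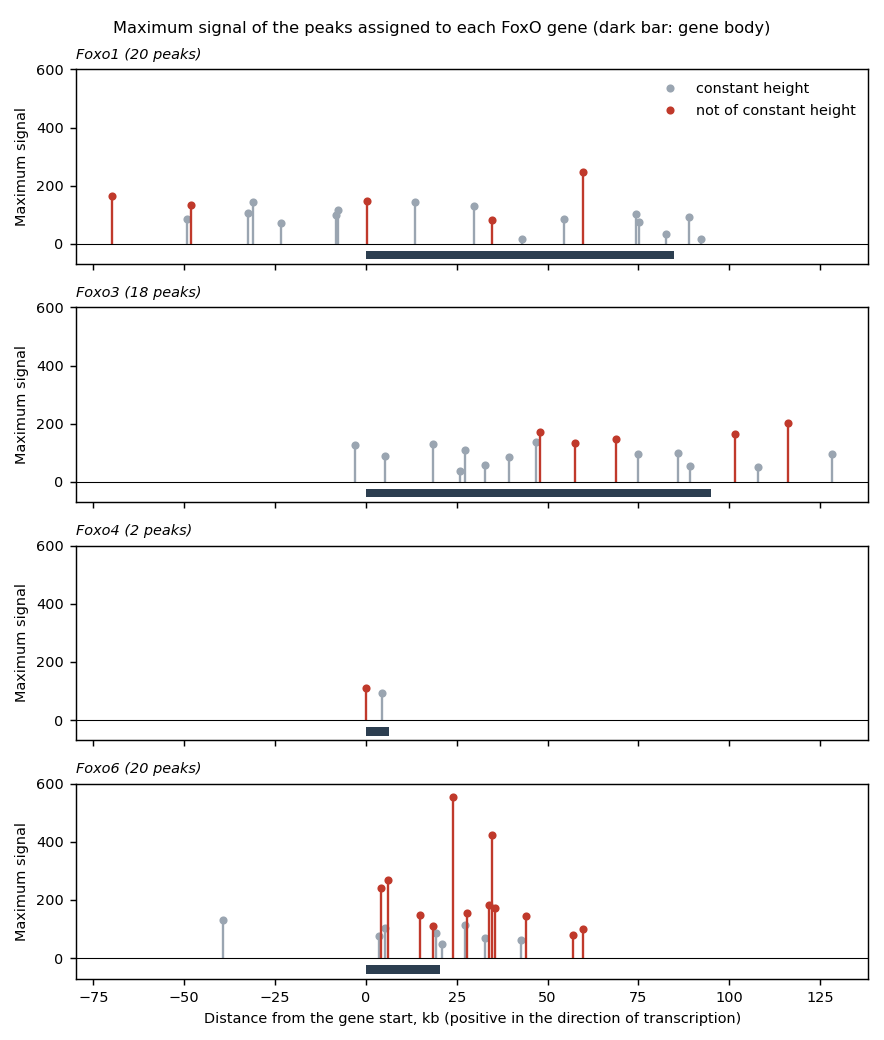
Maximum signal (vertical axis) of each peak assigned to Foxo1, Foxo3, Foxo4 and Foxo6 against the distance of the middle of its maximum from the gene start in kb, positive in the direction of transcription. Red peaks are not of constant height, grey ones are, and the dark bar is the gene body. The peaks of 554 and 425 lie past the 3′ end of Foxo6.

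The tandem repeats at FoxO summits led to the same count over the list, with a limit of 60% of bases equal at some shift from 10 to 80 bp that was chosen after the Foxo1 peak had been seen. It was reached by 10 of the 305 forkhead windows (3.28%) and 2.52% of all windows. None of the 10 peaks was of constant height. Most were low: the Foxl1, Foxd3, Foxp1, Foxn3, Foxa2 and Foxi2 peaks had maxima between 13 and 46. The Foxn2 peak had 139, and the Foxo3 and Foxo1 peaks 164 and 248. How reads that align to several repeat units were treated is not given in the sources used here, and the part of such alignment in these peaks was not tested. Bases masked as repeat made up at least 50% of the window in 40 forkhead peaks (13.1%), in 4 FoxO peaks (6.67%) and in 15.7% of all peaks.

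Of the family's peaks ranked highest by maximum or total signal, most were away from promoters, which held for the whole list too. Of all peaks in the top 10% by maximum and by total signal, 32.3% and 36.0% were within 1 kb of a TSS. By maximum signal the highest included the Foxo6 peaks with 554, 425 and 269 and a Foxf2 peak with 254. The Foxf2 peak, at a regulator of mesenchymal development, lay 25584 bp downstream of the TSS it was assigned to. By total signal the first 5 were Foxo6 with 262118, Foxo1 with 180671, Foxo6 with 167980 and 119457, and Foxj1 with 111728. Of these only the Foxj1 peak, with a maximum of 248, was within 1 kb of a TSS, at 451 bp upstream. Of the 19 forkhead peaks with a maximum above 200, 6 were FoxO peaks, where FoxO peaks made up 60 of the 305.

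By the authors' assignment, the family's peaks had a larger median distance from starts than those of the whole list. By their distances 37 of 305 (12.1%, 8.93 to 16.3) were within 1 kb of a TSS, beside 15.3% of all peaks. That interval holds the share of all peaks. With peaks within 1 kb of each other merged it did not: the share was 8.915% (6.01 to 13.0), below the 13.8% of all merged peaks. With peaks taken by gene body and the 10 kb around it in place of the authors' assignment, the share was 21.59% (16.7 to 27.4). That rule leaves out distal peaks by construction. The share of all peaks under the same rule was not computed, so this value cannot be set beside 15.3%. In the wider promoter class of the authors, within 3 kb, there were 54 (17.7%, 13.8 to 22.4), below the 24.6% of all peaks. Introns held 141 (46.2%, 40.7 to 51.8) against 38.0%, and 97 (31.8%, 26.8 to 37.2) were over 50 kb from a TSS against 25.9%. The median distance was 25584 bp, and 14783 bp for all peaks. FoxO peaks were within 1 kb in 3 of 60 cases (5.0%, 1.71 to 13.7), namely the Foxo1, Foxo3 and Foxo4 peaks described above. By GENCODE gene bodies, 145 of the 305 lay in the body of the gene they were assigned to, 36 in the body of another protein-coding gene and 124 outside any. All 13 Foxl1 peaks lay inside another long gene model, Gm20388, so they are Foxl1 peaks by the authors' assignment only. Of the Foxk1 peaks, 4 lay in Sdk1, which encodes a synaptic adhesion protein.

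The authors' distance is measured from the region of maximum signal, so a peak can cover a start, as at Foxo1, without a distance of 0. The region of maximum signal itself lay over a TSS, at distance 0, in 9 peaks, 2.95% of the forkhead peaks and 3.03% of all peaks. They were assigned to Foxa2, Foxc2, Foxf1, Foxj2, Foxn3, Foxo3, Foxo4, Foxp2 and Foxp3. Only the Foxf1, Foxj2 and Foxo4 peaks were not of constant height, with maxima of 59, 41 and 110. The others were of constant height, so their region of maximum signal was nearly the whole peak and marks no summit on the TSS. Counted the other way, from each gene's outermost start to the nearest peak of any assignment, 19 of 45 forkhead genes (42.2%, 29.0 to 56.7) had a peak within 1 kb, beside 39.3% of 21938 protein-coding genes. With peaks not of constant height only, it was 14 of 45 (31.1%, 19.5 to 45.7), beside 27.8%. All 4 FoxP starts were among the 19, at 0 bp for Foxp1 and Foxp4, 106 bp for Foxp2 and 347 bp for Foxp3, and all 3 FoxA starts. The peaks nearest to the Foxp3 and Foxa3 starts were assigned to other genes, Flicr and Sympk, and are not among the forkhead peaks. The peak over the Foxp1 start was low, with a maximum of 73, and that at Foxp4 had 145. Foxn3, a repressor with a long gene, had the farthest start, 62496 bp from any peak, and its 2 peaks within 1 kb of a TSS, with maxima of 177 and 65, were at internal transcripts.

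**Figure D4:**
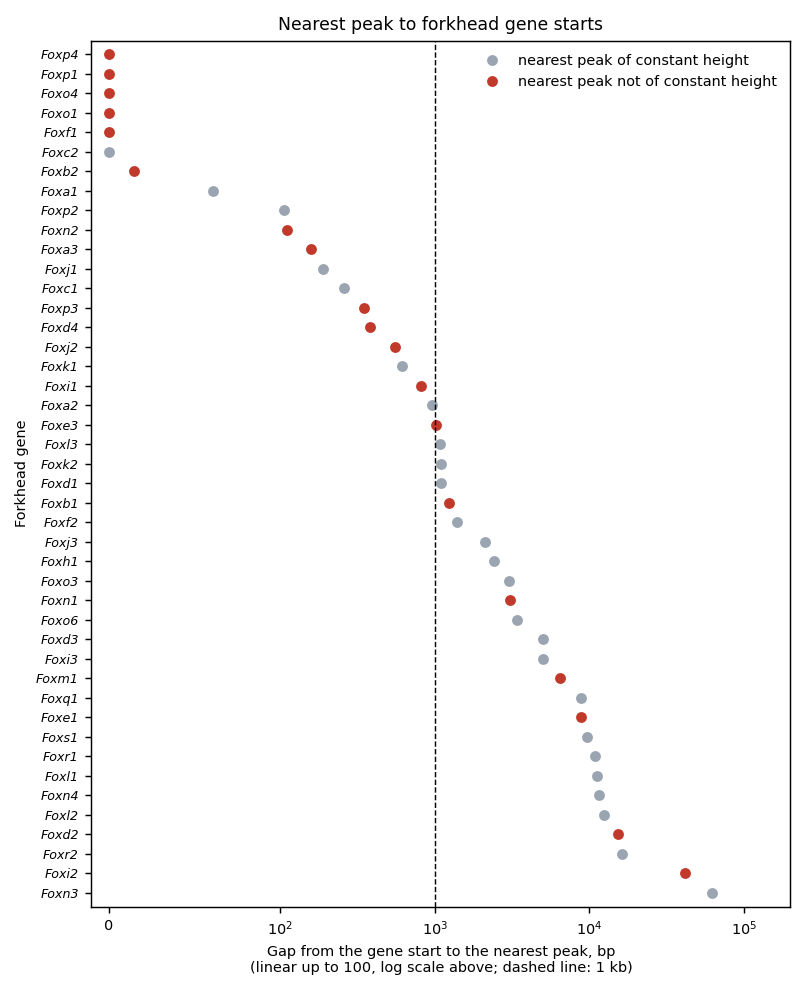
Gap in bp from the outermost start of forkhead genes to the nearest peak of any assignment (linear to 100 bp, log scale above), coloured by the shape of that peak. The dashed line is at 1 kb, and 19 genes lie to its left.

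Peak density within gene bodies differed among long forkhead genes. Foxp1 and Foxp2 are both on chromosome 6 and have bodies of 597.4 and 540.6 kb. The Foxp1 body held 49 peaks, a density 2.22 times that of its chromosome (Poisson interval 1.64 to 2.93), and the Foxp2 body held 11, at 0.55 times (0.275 to 0.985). These intervals do not overlap. Of the 49 assigned peaks in the Foxp1 body 14 were not of constant height, and of the 11 in Foxp2 0 were. Foxn3 was at 0.851 times (0.44 to 1.49). The FoxO bodies over 20 kb were denser than their chromosomes, at 3.8 times for Foxo1 (1.82 to 6.98), 3.54 for Foxo3 (1.89 to 6.06) and 8.26 for Foxo6 (3.32 to 17.0). Foxk1 was at 4.96 times (2.71 to 8.32), from 14 peaks of any assignment in its body, and Foxp4 at 3.42 (1.57 to 6.5). Foxp3 was at 11.5 (2.37 to 33.6), from 3 peaks on chromosome X, which had only 12.1 peaks per Mb, beside 38.7 for the chromosome of Foxo3. The Foxp3 and Foxo3 bodies themselves had similar densities, 139 and 137 peaks per Mb. Foxj2 was at 5.31 (1.73 to 12.4), while the intervals of Foxj3, Foxn1, Foxn2 and Foxk2 held 1. The ratio was not computed for the bodies of genes in general, so a value above 1 is not shown to be particular to these genes. A Poisson interval takes peaks as independent, and neighbouring peaks may be parts of 1 enriched region, so the true uncertainty is larger.

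**Figure D5:**
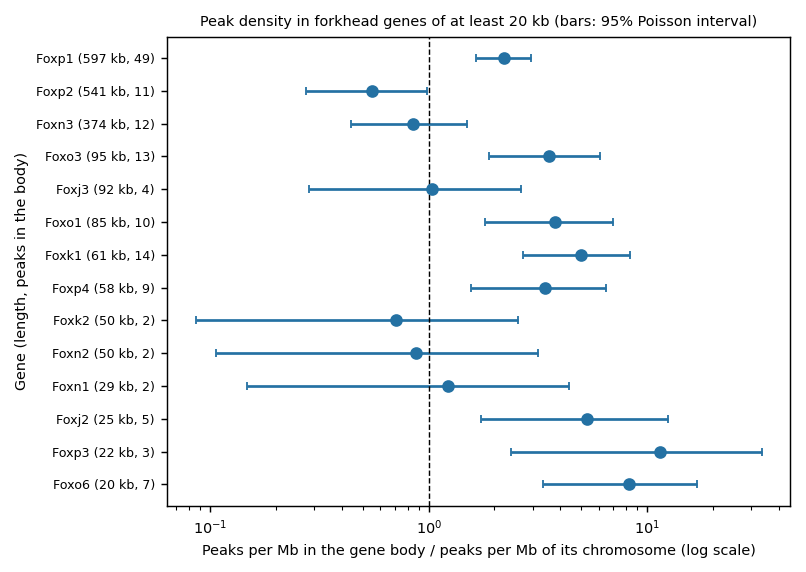
Peaks per Mb in the gene body divided by peaks per Mb of its chromosome (log scale), with Poisson 95% intervals, for forkhead genes of at least 20 kb. The Foxp2 interval lies below 1 and the Foxp1 interval above it.

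Genes that act with FoxO were looked at in 3 lists. Of 12 upstream receptors and kinases, 8 (66.7%, 39.1 to 86.2) had a peak within 1 kb of the gene start, and all 8 had one not of constant height, beside 39.3% and 27.8% of all protein-coding genes. Peaks covered the starts of Irs1 and Irs2, the adaptors of the insulin receptor, with maxima of 445 and 387, and of Pik3ca, a catalytic subunit of PI3-kinase, with 375. Insr, the receptor itself, had its nearest peak 19506 bp from the start, and Sgk1, a kinase that also phosphorylates FoxO, 16289 bp. Of 13 partners and modifiers 7 had a start peak (53.8%), 5 of them with a peak not of constant height, and the highest was at Ywhab, a 14-3-3 protein, with 381. Of 17 reported FoxO targets 11 had a start peak (64.7%, 41.3 to 82.7), 7 of them with one not of constant height. Among these were Bcl2l11, which promotes cell death, with a maximum of 384, Sesn3, a stress-induced inhibitor of growth signalling, with 279, and Pdk4, a brake on pyruvate oxidation, with 226. These start peaks were named because they were the tallest of their lists, and all were taller than the 149 and 110 at Foxo1 and Foxo4. Start peaks were also counted at marker genes, with the tissue label in mind. They were found at 4 of 7 genes of hippocampal excitatory neurons, 1 of 4 of interneurons and 1 of 4 of oligodendrocytes. For astrocytes and microglia it was 0 of 4 each, and for other organs 0 of 5. The Wilson interval of each marker list holds the 39.3% of all protein-coding genes. The marker lists are thus too short for these counts to check the label.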

How the data were processed

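Values were analysed for the 1 anti-FLAG library of the 2 libraries; files of the IgG library were not analysed here. Per the labels' protocols, the authors aligned paired reads to mm10 with Bowtie2, filtered out poor and duplicate reads, and ran SEACR with IgG as control. Versions, the SEACR mode and the annotation tool are not given in the sources used here. The deposited peak list gives each peak's total and maximum signal (coverage, scaling not stated), and a deposited table assigns the region of maximum signal to a transcript, with a distance. Depth is unknown.

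From these, shares with Wilson intervals, medians, percentiles and Poisson intervals were computed in Python 3.11.15 with numpy 2.4.6, pandas 2.3.3, scipy 1.17.1 and pysam 0.24.0. Gene starts came from GENCODE M21, which held 77 of the 78 assigned forkhead transcripts. Windows of 200 bp were searched on both strands of GRCm38.p6, and the motif search and shares were tested on simulated data. Members, lists and the constant-height measure were chosen with earlier results of these data known. Named were all FoxO genes, the 5 tallest and 5 largest peaks, the 5 genes with most peaks, genes with a maximum over a TSS and genes without peaks. Some genes that the rule or lists hold are not reported here. Other genes, and the tandem repeat count, were picked after their values were seen. Alternatives were stricter peak sets, wider peaks, merging within 1 kb, assignment by gene body within 10 kb, and other distances, ratios and windows.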

Additional observations from a re-analysis of the deposited data

How the results depend on the processing

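Of 54 alternative values for 7 results, 22 stayed within the 95% interval of the reported value (for numbers of peaks, within 1.5 times it) and 32 did not. Whether a direction reversed was not scored. Stricter sets have fewer peaks by construction; for the other changes the cause was not tested. With maximum signal above the median there were 141 forkhead peaks and 33 FoxO peaks, 50.35% of constant height, a median maximum of 132 and 26.67% of gene starts with a peak. Among all peaks of that set 50.9% were of constant height and the median was 135. In the top 10% by maximum there were 22 and 6, with 18.18% within 1 kb of a TSS, 0.0% of constant height, a median of 229, 4.444% of starts and 4.545% with TATTTTT or TATTTTG. In the top 10% by total signal there were 24 and 10, with 20.83% within 1 kb, 4.167% of constant height, a median of 208.5, 8.889% of starts and 4.167% with the motif. Without peaks of constant height there were 109 and 23, with 20.18% within 1 kb, a median of 122 and 2.752% with the motif. All peaks of the top 10% by maximum, the top 10% by total and this set had 32.3%, 36.0% and 23.2% within 1 kb. In the same order their medians were 240, 219 and 134, and 5.96%, 5.92% and 7.03% held the motif. Of all peaks in the top 10% by maximum and by total, 0.131% and 1.54% were of constant height. The share of constant height was 53.51% among peaks at least 200 bp wide, beside 52.5% of all peaks of that width. The share within 1 kb was 8.915% with merged peaks (13.8% of all merged peaks, above the forkhead interval of 6.01 to 13.0) and 21.59% with assignment by gene body. It was 8.197% for a distance of 500 bp (11.5% of all peaks) and 17.7% for 3 kb (24.6% of all peaks), where 62.22% of gene starts had a peak. The motif was in 14.75% of 400 bp windows and 15.41% of whole peaks, against 19.3% and 17.7% for all peaks. No paired analysis was possible because each antibody has 1 library and no result comes from a test between them. Leaving out a replicate was not possible for the same reason. The unknown depth limits any statement on absent peaks.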
